A study of Mus musculus with 12 samples.

Results

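The glycolysis and hypoxia response genes examined here are 37 named genes: the enzymes that break glucose down to lactate, the carriers that move glucose and lactate across the membrane, the hypoxia-inducible factor HIF-1α with its prolyl hydroxylases, and well-known transcripts that low oxygen induces. Membership goes by gene name, with no threshold on a measured value, but the list was drawn up with earlier results of these data known. Of the 37 names, 36 had a row among the 32168 genes of the count table. Aldoa had 2 rows, a main one and a low one at a neighbouring locus, so 37 rows entered the tests, and all 37 passed the filter on low counts that kept 16595 genes. No row is named Ca9. The reference table lists Ca9 as another name of Car9, and the Car9 row is described apart and not counted among the 37.

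The 12 RNA-seq libraries came from fibroblasts of E13.5 mouse embryos, kept in culture for 4 to 10 passages. They were wild type (WT) or double knockouts for LATS1 and LATS2 (LATS1/2 DKO in the labels, DKO below), the Hippo pathway kinases that restrain the co-activators YAP and TAZ of the TEAD factors. Both received the TEAD inhibitor MGH-CP1 (CP1) at 1 µM in DMSO, or DMSO alone, for 2 or 4 days, which gives 8 groups: 2 libraries in each of the 4 CP1 groups and 1 in each of the 4 DMSO groups. All cells grew in DMEM with 10% serum, 2 mM glutamine and 4.5 g/L glucose, and the labels name no low-oxygen treatment. The labels give neither the number of embryos or lines behind each genotype nor how the kinases were removed, so loss of LATS1/2 and the origin of the cells cannot be told apart. They also do not say whether repeats were separate cultures, so the p-values rest on a spread among these samples that may be purely technical. Each DMSO group, being 1 library, borrows its spread from the CP1 groups.

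As background, glycolysis turns glucose into pyruvate. Lactate dehydrogenase reduces pyruvate to lactate, and monocarboxylate carriers export it. In oxygenated cells, the EGLN prolyl hydroxylases mark HIF-1α for destruction. When oxygen falls, the protein is spared, enters the nucleus and binds hypoxia response elements, whose core reads ACGTG or GCGTG, near genes of glucose uptake, glycolysis, mitophagy, collagen hydroxylation and angiogenesis. HIF activity is set mainly at the level of the protein, which RNA counts do not measure.

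Libraries held 16970834 to 25299262 counts. Below, levels are CPM (counts scaled to a common library size) over totals scaled by TMM, a log2 fold change is followed by its standard error after ±, and a gene is called when the edgeR quasi-likelihood test gives a Benjamini-Hochberg adjusted p under 0.05 over all 16595 genes. Some libraries stood apart. Of the 37 rows, 34 were higher in repeat 2 than in repeat 1 of DKO CP1 day 2 (91.9%, against 51.7% of all genes tested), 13 of them by at least 1.25-fold (35.1%, against 11.3%). In the other CP1 groups 12, 31 and 10 of the 37 rows were higher in repeat 2 (WT day 2, WT day 4 and DKO day 4), and at most 2 by that factor. Among the genes at least 1.25-fold apart in the DKO CP1 day 2 pair, Slc2a1, Hk1, Gpi1, Egln1 and Ndrg1 have wide standard errors below. The 2 WT DMSO libraries differed less from each other than did the repeats of any CP1 group. Chi-square per degree of freedom was 1.95 for the former, 50.6 for WT CP1 day 2 and 2.25 to 5.84 for the other CP1 groups. In WT CP1 day 2, CT010467.1, annotated as rRNA, took 2.61% of counts in repeat 1 and 0.0327% in repeat 2. How much of the 50.6 comes from this gene was not tested. The 2 DKO DMSO libraries differed by 43.8 on this measure. The DKO DMSO libraries also held fewer genes with at least 1 count (20682 and 21648, against 22042 to 23680 elsewhere). Their abundant genes were mostly higher than in WT. These 685 genes had a mean of at least 8 log2 CPM over all 12 libraries, DKO included. Of them, 60.6% were called higher on day 2 and 58% on day 4. The summed level of 10 fibroblast markers ran from 14264 to 22032 CPM in WT and from 10013 to 16814 CPM in DKO libraries. Of the 10, 9 were lower in both DKO DMSO libraries than in both WT DMSO libraries, and Vim was higher (4939 and 4042 against 3093 and 3129 CPM). The 9 include Thy1, at 119 and 121 CPM in WT DMSO and 0 in both DKO DMSO libraries, and Pdgfra, at 463 and 449.6 CPM and 63.8 and 44.9 CPM. Summed neural markers were higher in DKO (113 to 422 CPM, against 54.2 to 75.2 CPM in WT), as were summed endothelial (19.9 to 71.6 against 3.0 to 12.6) and macrophage markers (8.38 to 14.9 against 4.34 to 6.21), with the macrophage marker Adgre1 at 0 in all DKO libraries. Single genes of these lists did not all follow the sums. Of 4 neural genes, 2 were higher and 1 lower in both DKO DMSO libraries than in both WT DMSO libraries. Of 4 endothelial genes 1 was higher and 1 lower, and of 5 macrophage genes 3 were higher and 0 lower. Epithelial (2.91 to 12.1 against 1.84 to 3.0 CPM), skeletal muscle (2.68 to 5.06 against 0.782 to 1.58 CPM) and erythroid sums (0.407 to 2.11 against 0.443 to 1.08 CPM) were low in DKO and WT. The skeletal muscle sums were nonetheless higher in every DKO library, and all 3 genes were higher in both DKO DMSO libraries. By the same order, of 5 epithelial genes 2 were higher and 3 lower, and of 3 erythroid genes 1 was higher and 0 lower. Whether any of these differences between the cells takes part in the results below was not tested, and in bulk RNA a changed share of cells and a changed amount of RNA per cell cannot be told apart.

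Most members held a hypoxia response element core near a start site. RefSeq promoter windows of GRCm38.p6, 250 bases before to 50 bases after each start, were found for 35 of the 37 names (not for Ndrg1 or Ca9). Searched on both strands, so that the palindrome CACGTG counts once on each, ACGTG or GCGTG occurred in at least 1 window of 32 of the 35 (91.4%), against 7433 of 11337 genes tested (65.6%) and 12628 of all 27025 genes (46.7%). Counted over single windows, since some genes have several, the share was 79.6% of 54 member windows and 59.8% of 14449 windows of genes tested. The 3 without a core in these windows were Gpi1, Tpi1 and Eno2. A match is a description of letters, not a site bound by HIF. Stretches of 8 promoters are shown because these genes carry the results that follow. Pgk1, Ldha, Gapdh and Hk2 were high in DKO cells under DMSO, P4ha2 was higher in DKO cells after 2 days of CP1 than in DMSO, and Hif1a, Ldhb and Adm were low in DKO cells. Each is printed 5′ to 3′ on the strand of its gene, with the cores on either strand in capitals.
Pgk1: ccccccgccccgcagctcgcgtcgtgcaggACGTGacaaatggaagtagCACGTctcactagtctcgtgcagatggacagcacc
Ldha: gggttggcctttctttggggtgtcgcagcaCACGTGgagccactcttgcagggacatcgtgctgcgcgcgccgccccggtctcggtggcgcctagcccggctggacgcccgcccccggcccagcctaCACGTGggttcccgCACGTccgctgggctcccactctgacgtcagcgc
Gapdh: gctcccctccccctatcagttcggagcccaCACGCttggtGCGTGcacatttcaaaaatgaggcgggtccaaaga
Hk2: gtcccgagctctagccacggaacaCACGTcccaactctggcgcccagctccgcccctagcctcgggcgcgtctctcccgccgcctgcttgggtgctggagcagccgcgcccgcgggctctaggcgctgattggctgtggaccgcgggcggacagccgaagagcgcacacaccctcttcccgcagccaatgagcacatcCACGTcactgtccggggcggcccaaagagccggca
P4ha2: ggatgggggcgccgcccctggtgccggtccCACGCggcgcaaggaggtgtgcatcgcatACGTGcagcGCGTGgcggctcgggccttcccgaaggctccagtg
Hif1a: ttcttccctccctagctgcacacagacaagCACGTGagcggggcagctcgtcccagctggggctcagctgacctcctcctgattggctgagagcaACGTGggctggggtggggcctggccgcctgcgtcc
Ldhb: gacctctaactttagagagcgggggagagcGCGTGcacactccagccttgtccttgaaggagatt
Adm: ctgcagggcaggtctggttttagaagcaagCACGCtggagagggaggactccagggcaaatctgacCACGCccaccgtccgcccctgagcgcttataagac
The stretches lie at chrX:106186920-106187003 (Pgk1, plus strand), chr7:46845629-46845803 (Ldha, plus), chr6:125165783-125165857 (Gapdh, minus), chr6:82774472-82774704 (Hk2, minus), chr11:54100787-54100889 (P4ha2, plus), chr12:73907702-73907831 (Hif1a, plus), chr6:142508049-142508113 (Ldhb, minus) and chr7:110627537-110627637 (Adm, plus). Ldha shows 5 core matches, 4 of them from the palindrome CACGTG that occurs at 145 and 48 bases before the start. Hif1a itself shows 3, and Ldhb shows 1. Genes that were high and genes that were low in DKO cells both held cores.

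Without drug, DKO fibroblasts held more RNA for nearly every main glycolytic enzyme than WT fibroblasts, on both days. Summed over 17 enzymes from hexokinase to lactate dehydrogenase, transcripts made up 0.772% and 0.778% of TMM-scaled counts in WT DMSO cells on days 2 and 4, and 1.80% and 1.65% in DKO DMSO cells. Of the 37 rows, 18 were called higher in DKO on day 2 and 15 on day 4, where 33% and 31.5% of all genes tested were called higher. At least 2-fold higher were 11 on day 2 and 7 on day 4, against 14.4% and 12.9% of all genes, and at least 2-fold lower were 10 and 9, against 23.8% and 19.1%. Called lower were 13 on each day, which is close to the background of 35.1% and 33%. The median log2 fold change of the 37 rows was 0.42 on day 2 and 0.45 on day 4, and that of all genes tested was -0.06 and -0.02. Among the 11 members with a mean of at least 8 log2 CPM, 10 and 9 were called higher with medians of 1.16 and 1.04. The medians of all 685 such genes were 0.41 and 0.32. That mean was taken over all 12 libraries, so a gene could pass the floor through its DKO level. The counts among such genes are therefore partly fixed by the choice. Scaling to library totals moved the day 2 median of all genes by -0.15 and left the calls of members at 18 and 13. The fit on TPM values gave 13 and 13 on day 2 and 11 and 13 on day 4.

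In the lower part of the pathway, where ATP is regained, 5 of 6 enzymes were called higher on both days. The other, Eno2, was called lower on both (-2.21 and -1.99). Of all genes tested 33% and 31.5% were called higher, and of the 685 abundant genes 60.6% and 58%. Pkm, pyruvate kinase, stood at 1643 and 1628 CPM in WT DMSO cells on days 2 and 4 and at 4674 and 4230.1 CPM in DKO DMSO cells. Its CP1 libraries held 1431 and 1406 CPM on day 2 and 1702 and 1768 CPM on day 4 in WT, and 2599 and 2973 and then 2003 and 1957 CPM in DKO. Pkm was therefore higher in each of the 6 DKO libraries than in any of the 6 WT libraries, and the genotype difference in DMSO was 1.51 ± 0.08 on day 2 (edgeR adjusted p = 7.16e-16) and 1.38 ± 0.08 on day 4 (adjusted p = 7.08e-15). Eno1, the main enolase, was at 889.9 and 884 CPM in WT DMSO and 2527 and 2153 CPM in DKO DMSO. Under CP1 it was at 783 and 811 CPM (day 2) and 913 and 1023 CPM (day 4) in WT, and at 1166 and 1397 CPM (day 2) and 811 and 798 CPM (day 4) in DKO. The DMSO groups lay far apart while the day 4 CP1 libraries of DKO lay within the range of WT, and the DMSO difference was 1.51 ± 0.10 and 1.28 ± 0.10. Reads of Eno1 and of its near-identical retrocopy Eno1b may have been split between their rows, and Eno1b was also called higher in DKO DMSO on day 2 (1.64 ± 0.13). Pgk1, phosphoglycerate kinase, was at 576 and 568 CPM in WT DMSO and 1545 and 1282 CPM in DKO DMSO, a difference of 1.42 ± 0.09 on day 2 and 1.17 ± 0.09 on day 4. Its CP1 libraries held 531 and 535 CPM (day 2) and 603 and 644 CPM (day 4) in WT, and 550.3 and 529.8 CPM on day 4 in DKO. Gapdh, the dehydrogenase that opens the lower part of the pathway, was at 1255 and 1289 CPM in WT DMSO and 2615 and 2648 CPM in DKO DMSO. The difference was 1.06 ± 0.19 (edgeR adjusted p = 0.00392) and 1.04 ± 0.19 (adjusted p = 0.00466). A transcript often used as a loading reference thus differed between the genotypes as well, by less than Pgk1, Eno1 and Pkm. Pgam1, the mutase, differed by 1.23 ± 0.06 and 1.15 ± 0.06.

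In the upper part, where glucose is phosphorylated and split, 8 of 10 rows were called higher on day 2 and 6 on day 4. Of all genes tested 33% and 31.5% were called higher. On each day 1 row, Aldoc, was called lower. Hk2, the inducible hexokinase, was at 57.4 and 53.1 CPM in WT DMSO and 112 and 72.5 CPM in DKO DMSO, and the difference fell from 0.97 ± 0.10 on day 2 to 0.45 ± 0.10 on day 4. Hk1, the widely expressed hexokinase, was at 189 and 192 CPM in WT DMSO and 365 and 293 CPM in DKO DMSO. CP1 libraries held 159 and 158 CPM (day 2) and 154 and 168 CPM (day 4) in WT and 259 and 347 CPM (day 2) and 191 and 204 CPM (day 4) in DKO. Hk1 was called higher in DKO DMSO on day 2 (0.95 ± 0.22, edgeR adjusted p = 0.0179) and had a difference of 0.61 ± 0.22 on day 4 (adjusted p = 0.0728). The 3 phosphofructokinase genes, which encode the committed step, were all called higher on both days: Pfkl by 1.04 and 0.91, Pfkm by 1.02 and 0.89, and Pfkp by 0.87 and 0.67. Pfkp was at 99.2 and 94.98 CPM in WT DMSO and 181 and 151 CPM in DKO DMSO, and under CP1 at 100.4 and 99.8 CPM (day 2) and 102 and 100.5 CPM (day 4) in WT and 146 and 176 CPM and 86.3 and 81.0 CPM in DKO. Aldoa, the main aldolase, and Tpi1, triose phosphate isomerase, showed smaller differences of 0.52 ± 0.13 and 0.54 ± 0.07 on day 2. Gpi1, glucose phosphate isomerase, was called on day 2 (1.16 ± 0.32, adjusted p = 0.0327). That call was lost, at nearly the same fold change, when any library of WT CP1 or of DKO CP1 day 4 was left out. Pfkfb3, which makes the activator fructose 2,6-bisphosphate, went the other way with -0.98 ± 0.27 and -1.13 ± 0.28, and Pfkfb4 had differences of 0.08 ± 0.22 and -0.31 ± 0.23 that were not called.

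**Figure D1:**
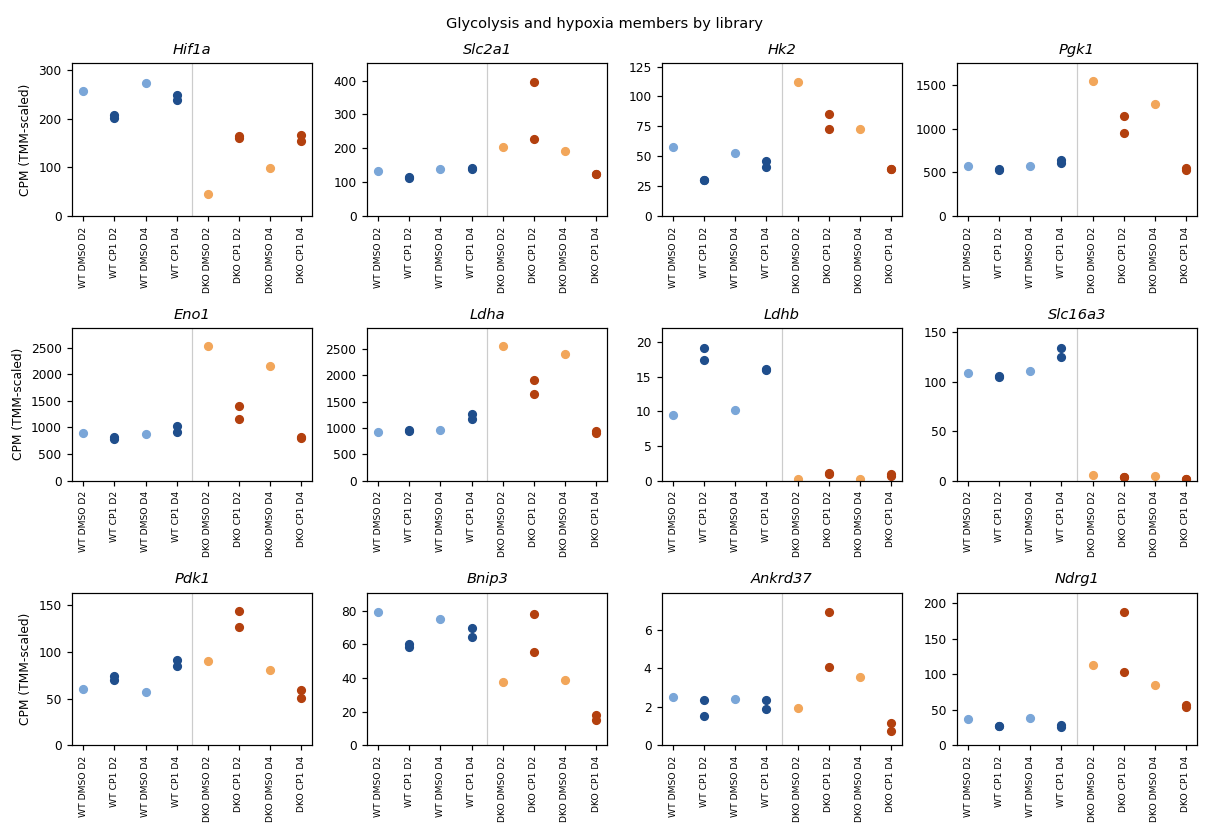
Level of 12 members in each of the 12 libraries (vertical axis, TMM-scaled CPM on a linear axis from 0; horizontal axis, the 8 groups; each point is 1 library, and the grey line parts WT from DKO). Ldha, Pgk1 and Eno1 are highest in the 2 DKO DMSO libraries and near or below the WT level in DKO CP1 day 4, while Hif1a, Ldhb and Slc16a3 are lower in every DKO library than in any WT library.

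**Figure D2:**
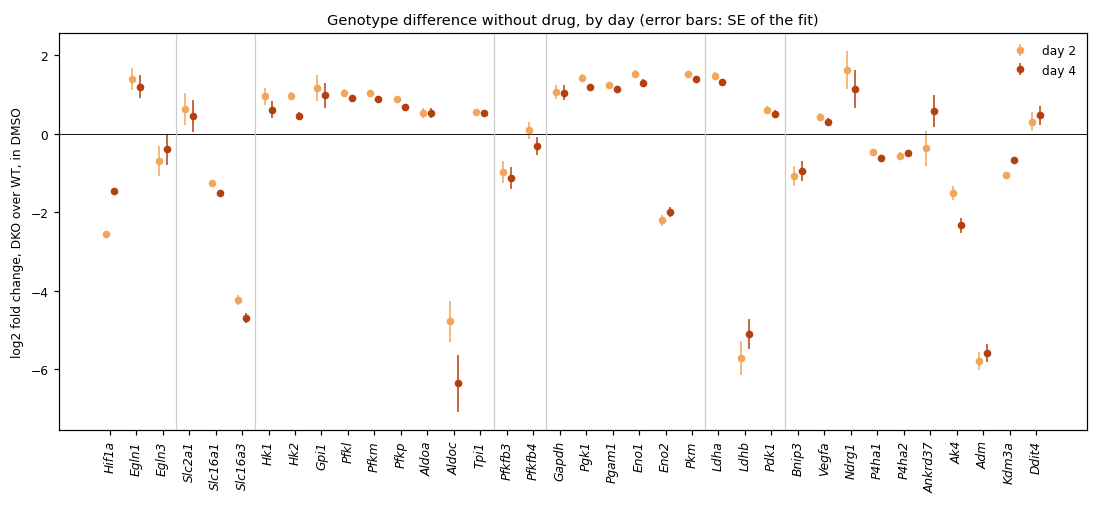
Log2 fold change of DKO over WT in DMSO for 36 members at day 2 and day 4 (points; bars are the standard error of the fit; grey lines part the roles, from HIF and its hydroxylases on the left to other hypoxia targets on the right). On day 2 the enzymes from Hk2 to Pkm that were called higher lie between 0.52 and 1.51, and Slc16a3, Aldoc, Ldhb and Adm lie at -4.23 or lower.

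The main subunit of lactate dehydrogenase was higher in DKO cells and the lactate carriers were lower. Ldha (ENSMUSG00000063229.15, mm10 chromosome 7, 46841475 to 46855627, plus strand), the lactate dehydrogenase subunit that favours lactate, was at 921 and 969.9 CPM in WT DMSO on days 2 and 4 and at 2559.6 and 2413 CPM in DKO DMSO. CP1 libraries held 958 and 952 CPM on day 2 and 1176 and 1269.6 CPM on day 4 in WT, and 1644 and 1904 CPM and 949 and 912 CPM in DKO. The 2 DKO DMSO libraries were the highest of the 12, and the 2 DKO CP1 day 4 libraries lay at or below the lower end of the WT range. The difference in DMSO was 1.47 ± 0.08 (edgeR adjusted p = 2.6e-14) and 1.31 ± 0.08 (adjusted p = 3.57e-13). Ldhb (ENSMUSG00000030246.11, mm10 chromosome 6, 142490249 to 142507957, minus strand), the subunit that favours pyruvate, was at 9.44 and 10.2 CPM in WT DMSO and 0.175 and 0.292 CPM in DKO DMSO. Under CP1 it was at 17.3 and 19.1 CPM (day 2) and 15.9 and 16.1 CPM (day 4) in WT, and at 1.11 and 0.969 CPM (day 2) and 0.670 and 0.894 CPM (day 4) in DKO. Every DKO library was far below every WT library. With only 3 and 5 reads in the DKO DMSO libraries, the WT level was 54.1 times the DKO level on day 2 (95% exact counting interval 18.2 to 265) and 35.0 times on day 4 (14.8 to 109), intervals that cover counting error only.

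The carriers were low in DKO cells. Slc16a3 (ENSMUSG00000025161.16, mm10 chromosome 11, 120948480 to 120960868, plus strand) encodes MCT4, the exporter of lactate in highly glycolytic cells. It was at 109 and 111 CPM in WT DMSO and 5.82 and 4.27 CPM in DKO DMSO, and under CP1 at 106 and 105 CPM (day 2) and 125 and 134 CPM (day 4) in WT against 3.11 and 3.93 CPM and 1.88 and 1.45 CPM in DKO. No DKO library came near a WT library, and the difference in DMSO was -4.23 ± 0.13 (edgeR adjusted p = 6.44e-21) and -4.70 ± 0.13 (adjusted p = 2.48e-21). Slc16a1, which encodes the broadly expressed carrier MCT1, was at 298 and 300.0 CPM in WT DMSO and 125 and 104 CPM in DKO DMSO, with 177 and 179 CPM (day 2) and 212 and 231 CPM (day 4) under CP1 in WT and 108 and 125 CPM and 123 and 124 CPM in DKO. It too was lower in every DKO library, by 1.25 ± 0.08 and 1.52 ± 0.08 in DMSO. Slc2a1, the glucose carrier GLUT1, was at 132 and 139 CPM in WT DMSO and 204 and 190.4 CPM in DKO DMSO. Under CP1 it was at 116 and 113 CPM (day 2) and 139 and 142 CPM (day 4) in WT and at 226 and 397 CPM (day 2) and 124 and 122 CPM (day 4) in DKO. The DKO DMSO libraries lay above all WT libraries, but the difference of 0.62 ± 0.42 and 0.45 ± 0.42 was not called (edgeR adjusted p = 0.255 and 0.404). With either library of the unequal DKO CP1 day 2 pair left out, both differences were called at 0.63 and 0.45.

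Ratios within several isozyme pairs differed between the genotypes. On the scale of counts per kilobase, Ldha was 44.9 to 46.3 times Ldhb in the WT DMSO libraries and 3916 to 6954 times in the DKO DMSO libraries. Eno1 was 12.8 to 12.9 times Eno2, the enolase of neurons, in WT DMSO and 124 to 169 times in DKO DMSO. Aldoa was 117 to 145 times Aldoc, the aldolase of brain, in WT DMSO and 4746 to 18684 times in DKO DMSO, where Aldoc had 4 and 1 reads. Slc16a1 was 3.25 to 3.28 times Slc16a3 in WT DMSO and 25.8 to 29.4 times in DKO DMSO. These 4 ratios were higher in each DKO library than in any WT library, as were Egln1 over Egln3 (27.2 to 65.5 in DKO, 15.4 to 25.2 in WT) and Pfkl over Pfkp (4.49 to 5.14 in DKO, 3.75 to 4.38 in WT). Ldhb, Eno2, Aldoc and Slc16a3 were by themselves lower in every DKO library than in any WT library. Of all single genes tested, 39.2% did not overlap between the genotypes, and no such share was taken for pairs of genes. Pfkfb3 over Pfkfb4 was lower in DKO DMSO (1.63 to 1.89) than in WT DMSO (3.32 to 3.41). In DMSO the ranges overlapped for Pfkl over Pfkm (1.59 to 1.70 in WT, 1.61 to 1.73 in DKO) and for 2 more pairs: Hk1 was 2.31 to 2.53 times Hk2 in WT DMSO and 2.28 to 2.82 times in DKO DMSO, and P4ha1 was 5.13 to 5.42 times P4ha2 in WT DMSO and 5.02 to 5.48 times in DKO DMSO. Under CP1 the Ldha to Ldhb ratio of DKO cells was 484 to 932, the Eno1 to Eno2 ratio 30.5 to 35.5, and the Slc16a1 to Slc16a3 ratio 38.2 to 102.

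**Figure D3:**
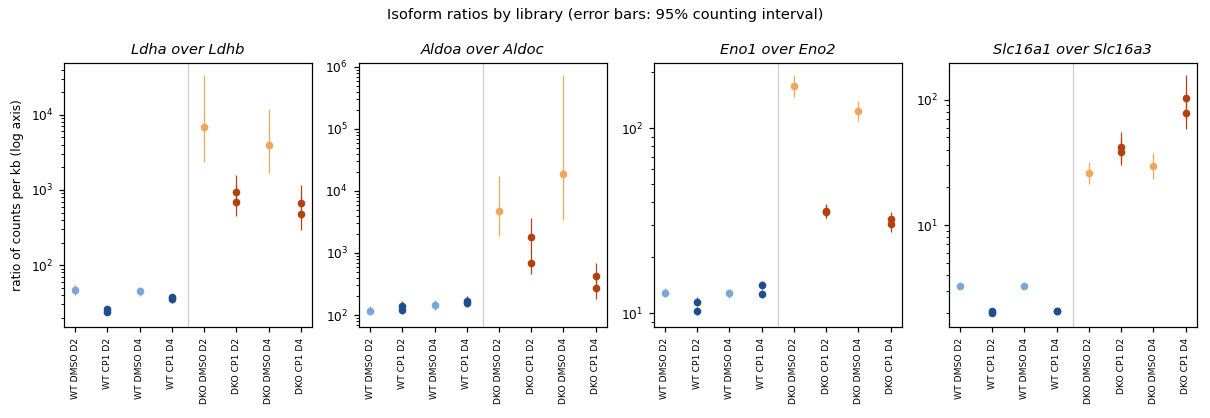
Ratio of 4 isozyme or carrier pairs in each library (vertical axis, ratio of counts per kilobase on a log axis; bars are 95% counting intervals; the grey line parts WT from DKO). Every DKO point lies above every WT point, and for Ldha over Ldhb the DKO DMSO libraries at 3916 and 6954 lie above the DKO CP1 libraries at 484 to 932.

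Hif1a and several hypoxia-induced genes were low in DKO cells under DMSO, while other hypoxia-induced genes and most of the enzymes were high. Hif1a (ENSMUSG00000021109.13, mm10 chromosome 12, 73901375 to 73947530, plus strand) was at 257 and 275 CPM in WT DMSO on days 2 and 4 and at 44.0 and 99.3 CPM in DKO DMSO. CP1 libraries held 203 and 208 CPM (day 2) and 239.9 and 250.1 CPM (day 4) in WT, and 161 and 164 CPM (day 2) and 167 and 155 CPM (day 4) in DKO. All 6 DKO libraries were below all 6 WT libraries, with the lowest value in DKO DMSO day 2. The difference in DMSO was -2.55 ± 0.07 on day 2 (edgeR adjusted p = 2.34e-21) and -1.47 ± 0.07 on day 4 (adjusted p = 8.3e-17). Egln1, the main hydroxylase that marks HIF-1α, was at 80.6 and 81.1 CPM in WT DMSO and 211 and 185 CPM in DKO DMSO, and at 85.9 and 90.3 CPM (day 2) and 102 and 118 CPM (day 4) under CP1 in WT against 156 and 223 CPM and 77.3 and 74.8 CPM in DKO. It was called higher in DKO DMSO by 1.39 ± 0.29 and 1.19 ± 0.29, and the day 4 call was lost when either DKO CP1 day 4 library was left out. Egln3, the inducible hydroxylase, had 2.39 to 3.86 CPM in the 4 DMSO libraries and was not called.

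Among the 10 other hypoxia targets, 6 were called lower in DKO DMSO on each day, against 35.1% and 33% of all genes tested. Called higher were 2 on day 2 and 1 on day 4, against 33% and 31.5%. A separate list of 30 HIF targets, described below, was split, with 13 higher and 11 lower on day 2 and 12 and 11 on day 4. Adm, the vasodilator peptide adrenomedullin, was at 48.9 and 47.9 CPM in WT DMSO and 0.873 and 0.994 CPM in DKO DMSO, and at 28.1 and 27.8 CPM (day 2) and 38.1 and 37.3 CPM (day 4) under CP1 in WT against 0.50 and 0.592 CPM and 0.586 and 0.168 CPM in DKO. All 6 DKO libraries stood below 1 CPM, with a difference of -5.80 ± 0.23 and -5.58 ± 0.23. Ak4, a mitochondrial adenylate kinase, was at 25.4 and 29.8 CPM in WT DMSO and 8.90 and 5.90 CPM in DKO DMSO, and at 22.8 and 19.7 CPM (day 2) and 26.1 and 32.6 CPM (day 4) under CP1 in WT against 5.84 and 6.30 CPM and 1.09 and 0.894 CPM in DKO. Every DKO library was below every WT library, and the DMSO difference was -1.51 ± 0.18 and -2.34 ± 0.19. Bnip3, a receptor for mitophagy, was at 79.4 and 75.2 CPM in WT DMSO and 37.5 and 38.8 CPM in DKO DMSO, lower by 1.08 ± 0.25 and 0.96 ± 0.25. CP1 libraries held 60.1 and 58.4 CPM (day 2) and 64.2 and 69.7 CPM (day 4) in WT and 55.3 and 78.0 CPM and 18.1 and 15.2 CPM in DKO, so repeat 2 of DKO CP1 day 2 lay within the WT range and the other DKO libraries below it. Kdm3a, a histone demethylase, was at 86.7 and 83.0 CPM in WT DMSO and 41.5 and 51.8 CPM in DKO DMSO, lower by 1.06 ± 0.09 and 0.68 ± 0.09. Under CP1 it was at 63.8 and 64.1 CPM (day 2) and 74.6 and 77.4 CPM (day 4) in WT and at 69.0 and 78.2 CPM and 54.3 and 54.9 CPM in DKO. P4ha1 and P4ha2, subunits of the enzyme that hydroxylates collagen prolines, were lower by 0.46 ± 0.07 and 0.56 ± 0.09 on day 2. Vegfa, the angiogenic growth factor, went the other way, at 88.3 and 92.5 CPM in WT DMSO and 118 and 113 CPM in DKO DMSO, a difference of 0.42 ± 0.11 and 0.29 ± 0.11 that was called. So did Pdk1, a member outside these 10, at 59.9 and 57.1 CPM in WT DMSO and 90.6 and 80.7 CPM in DKO DMSO. Its differences of 0.60 and 0.50 were called. Ndrg1, a hypoxia and stress-induced gene, was at 37.0 and 38.9 CPM in WT DMSO and 113 and 84.9 CPM in DKO DMSO, and at 26.7 and 27.4 CPM (day 2) and 25.8 and 28.0 CPM (day 4) under CP1 in WT against 104 and 188 CPM and 56.3 and 54.4 CPM in DKO. Each DKO library was above each WT library, yet the call of 1.61 ± 0.47 on day 2 (edgeR adjusted p = 0.0387) was lost when any WT CP1 or DKO CP1 day 4 library was left out. In all, 8 of the 37 rows were lower in every DKO than in every WT library and 2 were higher, against 20.9% and 18.4% of all genes tested, so the share below is near the background and the share above is under it.

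The 2 DKO DMSO libraries, which are compared here only with each other, differed in few members. From day 2 to day 4, 2 of the 37 rows were called higher (13.1% of all genes tested) and 5 lower (15%), at or below the background. Hif1a rose by 1.17 ± 0.08 (edgeR adjusted p = 1.7e-12) and Kdm3a by 0.32 ± 0.10. Hk2 fell by 0.63 ± 0.10, Pgk1 by 0.27 ± 0.09, Pfkp by 0.26 ± 0.09 and Slc16a1 by 0.26 ± 0.08 on the log2 scale. In WT DMSO cells, edgeR called 0 of the 37 rows and 0 of all genes tested between the days, 0 of the 37 at an unadjusted p under 0.05, and DESeq2 also called 0. The genotype difference changed between the days for 4 members, against 9.78% of all genes called higher and 8.67% called lower. It became less negative for Hif1a (1.08 ± 0.10) and Kdm3a (0.38 ± 0.13), more negative for Ak4 (-0.82 ± 0.27), and smaller for Hk2 (-0.52 ± 0.14). Pgk1 lost its call without either DKO CP1 day 4 or either WT CP1 day 2 library, Pfkp without either of the latter, and the change for Kdm3a was lost without any WT CP1 or DKO CP1 day 4 library. These 2 counts moved with the pair of DKO CP1 day 2 libraries: without either of them, the day comparison in DKO DMSO gave 16 members and the change of the genotype difference 9 or 10. Without either WT CP1 day 2 library the first gave 4. On library totals the members of the day comparison split 2 higher and 1 lower.

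In WT cells, CP1 moved the members little, and no member was called at 2-fold or more on either day, against 4.15% and 4.59% of all genes tested on days 2 and 4. On day 2, 2 rows were called higher and 9 lower, against 11.3% and 14.2% of all genes tested. On day 4, 7 were called higher and 6 lower, against 11.5% and 13.8%. Hk2 fell by 0.93 ± 0.09 on day 2 (edgeR adjusted p = 6.69e-09), from 57.4 and 53.1 CPM in the DMSO libraries to 30.3 and 29.8 CPM on day 2 and 40.9 and 46.2 CPM on day 4, where it was lower by 0.29 ± 0.09. Pfkfb3, at 42.4 and 40.3 CPM in DMSO, was at 25.5 and 20.9 CPM on day 2 and 22.8 and 25.2 CPM on day 4, lower by 0.87 ± 0.22 and 0.75 ± 0.22, and the DKO libraries held 21.5 and 18.5 CPM in DMSO and 18.7 and 27.8 CPM (day 2) and 10.3 and 12.9 CPM (day 4) under CP1. Slc16a1 fell by 0.74 ± 0.06 and 0.43 ± 0.06, Adm by 0.81 ± 0.10 and 0.35 ± 0.10, P4ha1 by 0.30 ± 0.06 and 0.38 ± 0.06, and Hif1a by 0.33 ± 0.05 and 0.17 ± 0.05 on days 2 and 4. Higher on both days were Ldhb, by 0.95 ± 0.16 and 0.65 ± 0.16, and Pfkm, by 0.61 ± 0.07 and 0.49 ± 0.07, with Pfkm at 61.8 and 58.5 CPM in DMSO, 96.2 and 91.9 CPM on CP1 day 2 and 83.7 and 80.3 CPM on day 4, while DKO DMSO libraries held 125 and 108 CPM. Pdk1, the kinase that closes pyruvate dehydrogenase, was at 59.9 and 57.1 CPM in WT DMSO, 74.3 and 69.9 CPM on CP1 day 2 and 85.0 and 91.5 CPM on day 4. It was called on day 4 (0.63 ± 0.10), and had a difference of 0.27 ± 0.10 on day 2 (edgeR adjusted p = 0.0512). Ldha was called on day 4 as well (0.33 ± 0.07). The counts were 22 on day 2 and 22 or 23 on day 4 without either DKO CP1 day 2 library. On library totals the day 4 calls split 12 higher and 3 lower, and the day 2 calls 4 and 8. On TPM values with rRNA and miRNA genes left out, they split 11 and 2 on day 4 and 3 and 7 on day 2. The day 4 calls on TPM values with all genes were 0 higher and 4 lower. Calls were lost on day 4 for Hif1a and Hk2 without repeat 1 of WT CP1 day 4, for Slc16a3 and Tpi1 without repeat 2, and for Adm and Pfkfb3 without either. Pfkfb3 also lost its day 4 call without either DKO DMSO library, and Pfkfb3 and Pkm their day 2 calls without repeat 2 of WT CP1 day 2.

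In DKO cells after 2 days of CP1, most enzymes of lower glycolysis were called lower and most of the other hypoxia targets higher. Of the 37 rows, 13 were called higher and 10 lower, against 27.1% and 29.1% of all genes tested. Of the 6 rows of lower glycolysis 5 were called lower, and of the 10 other hypoxia targets 7 were called higher and 1 lower. Abundant genes in general were mostly lower. Of the 685 genes with a mean of at least 8 log2 CPM, 65.1% were called lower with a median of -0.41. Of the 11 members among them, 7 were called lower with a median of -0.32. Because that mean includes the DKO DMSO libraries, falls from DMSO among these genes are partly fixed by the choice. This comparison and the genotype comparison share the lone DKO DMSO library of each day, so their values stand side by side and neither supports the other. The split depends on scaling: library totals moved the median of all genes tested from 0.03 to 0.30 and gave 16 members higher and 7 lower, TPM values gave 15 and 1, and TPM values without rRNA and miRNA genes gave 17 and 4. On the TMM scale, Eno1 fell by 0.98 ± 0.09 (edgeR adjusted p = 7.89e-08), Pkm by 0.75 ± 0.06, Gapdh by 0.62 ± 0.16, Pgk1 by 0.56 ± 0.08 and Ldha by 0.53 ± 0.07 on the log2 scale. Gapdh was at 1462 and 1939.6 CPM in the CP1 libraries, below the DMSO libraries in both, and Pgk1 was at 947 and 1141 CPM, also below both DMSO libraries. Slc16a3 fell by 0.72 ± 0.19 from its already low level, and Hk2, at 73.0 and 85.5 CPM, fell by 0.50 ± 0.08. Tpi1, called lower here, turned to 0.04 on library totals and was then not called, and Pfkl and Pfkm, not called here, were called higher on library totals by 0.27 and 0.22.

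Hif1a itself rose by 1.88 ± 0.07 (edgeR adjusted p = 1.3e-18), to 161 and 164 CPM. Bnip3, at 55.3 and 78.0 CPM, rose by 0.83 ± 0.23, and Kdm3a, at 69.0 and 78.2 CPM, by 0.83 ± 0.08. Ddit4, an inhibitor of mTORC1 induced by hypoxia, was at 53.8 and 56.2 CPM in WT DMSO, 67.8 and 64.0 CPM and 52.8 and 55.9 CPM in WT CP1 on days 2 and 4, 66.2 and 77.5 CPM in DKO DMSO, and 119 and 164 CPM and 60.9 and 59.8 CPM in DKO CP1 on days 2 and 4. The 2 DKO CP1 day 2 libraries were the highest of the 12, and the rise was 1.10 ± 0.21 (edgeR adjusted p = 0.00757). Vegfa rose by 0.60 ± 0.09, to 162 and 196 CPM, the highest of any group; its CP1 libraries held 105 and 97.7 CPM in DKO on day 4 and 94.5 and 98.1 CPM and 97.5 and 99.3 CPM in WT on days 2 and 4. Pdk1 rose by 0.58 ± 0.09, from 90.6 and 80.7 CPM in DKO DMSO to 126 and 144 CPM, and stood at 59.4 and 50.03 CPM on day 4. P4ha2 rose by 0.65 ± 0.08 and P4ha1 by 0.45 ± 0.06, with P4ha1 at 491 and 542 CPM in these libraries, 378 and 354 CPM in DKO DMSO and 522 and 540.4 CPM in WT DMSO. P4ha1 was at 299.7 and 291 CPM in DKO CP1 day 4 and at 426 and 425 CPM and 405 and 427 CPM in WT CP1 on days 2 and 4. Ankrd37, an ankyrin-repeat HIF target, rose by 1.51 ± 0.37, to 4.06 and 6.89 CPM. Its DKO DMSO libraries held 33 reads (1.92 CPM) on day 2 and 61 reads (3.57 CPM) on day 4. Egln3 rose by 0.95 ± 0.34, to 3.11 and 6.08 CPM, but by 0.38 and without a call when repeat 2 was left out. Slc2a1 had 0.61 ± 0.36 (adjusted p = 0.226), with 0.96 from repeat 2 alone and 0.15 from repeat 1 alone. Eno2 rose by 1.27 ± 0.13, to 28.7 and 34.5 CPM, from 13.1 and 15.2 CPM in DKO DMSO, still below the 60.4 and 60.5 CPM of WT DMSO and the 59.5 and 69.2 CPM and 63.1 and 63.0 CPM of WT CP1. Ldhb rose by 2.53 ± 0.65, where the ratio of counts was 5.95 (exact interval 1.89 to 30.1). Car9, the carbonic anhydrase that Ca9 also names and a classical HIF target, was at 2.79 and 2.28 CPM in DKO DMSO and 12.8 and 16.2 CPM in DKO CP1 day 2, a rise of 2.37 ± 0.24, and at 7.63 and 8.22 CPM in WT DMSO. Leaving out repeat 1 of the pair gave 16 members higher and 10 lower, and leaving out repeat 2 gave 13 and 17. Without repeat 1, Pfkl was called higher by 0.11.

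By day 4 of CP1, DKO cells held less RNA of most glycolytic enzymes than under DMSO, and 5 of the 10 other hypoxia targets were called lower and 0 higher. Of the 37 rows, 4 were called higher and 21 lower, against 21.8% and 26.8% of all genes tested. At least 2-fold lower were 15, against 4.48% of all genes. The median was -0.82, and that of all genes tested was 0.00. On library totals the median of all genes moved to 0.17 and the calls to 6 higher and 19 lower, and on TPM values without rRNA and miRNA genes to 6 and 17. All 11 members with a mean of at least 8 log2 CPM were called lower with a median of -1.18. Of the 685 such genes, 58.2% were called lower with a median of -0.27. The mean that chose them includes the DKO DMSO libraries, so falls from DMSO among them are partly fixed by the choice. Summed transcripts of the 17 enzymes made up 0.723% and 0.705% of scaled counts, lower than in any WT library (0.762% to 0.921%). Aldoa was at 687 and 682 CPM in WT DMSO, 753 and 746 CPM and 799 and 873 CPM in WT CP1 on days 2 and 4, 986 and 974 CPM in DKO DMSO, 779 and 974 CPM in DKO CP1 day 2 and 353 and 335 CPM in DKO CP1 day 4. The last pair lay far below every other library, and the log2 change was -1.50 ± 0.11 (edgeR adjusted p = 1.2e-06). Eno1 fell by 1.42 ± 0.09, Gapdh by 1.41 ± 0.16 and Ldha by 1.37 ± 0.07. Gapdh libraries were at 1021 and 969 CPM, below all WT libraries (1403 and 1368 CPM under CP1 on day 2 and 1536 and 1618 CPM on day 4). Pgk1 fell by 1.25 ± 0.08, Pkm by 1.10 ± 0.06, Pgam1 by 1.02 ± 0.05, Tpi1 by 0.97 ± 0.06, Hk2, at 38.9 and 38.8 CPM, by 0.90 ± 0.09 and the phosphofructokinases Pfkl and Pfkp by 0.82 ± 0.07 and 0.85 ± 0.08. Ak4 had the largest called fall of all members, 2.55 ± 0.29, to 1.09 and 0.894 CPM. Ankrd37 fell by 1.90 ± 0.40, Egln3 by 1.42 ± 0.41, Egln1 by 1.28 ± 0.24, Bnip3 by 1.21 ± 0.25 and Pdk1 by 0.55 ± 0.10. Egln1 lost its call without either DKO CP1 day 4 library. Against the trend, Hif1a rose by 0.70 ± 0.06 (edgeR adjusted p = 1.59e-10), Eno2, at 21.9 and 22.9 CPM, by 0.56 ± 0.13 and Slc16a1 by 0.24 ± 0.07. Aldoc was also called higher, from 1 read in DKO DMSO, where the ratio of counts was 19.2 (exact interval 3.29 to 776). The number called was 22 to 33 over fits that left out 1 library.

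**Figure D4:**
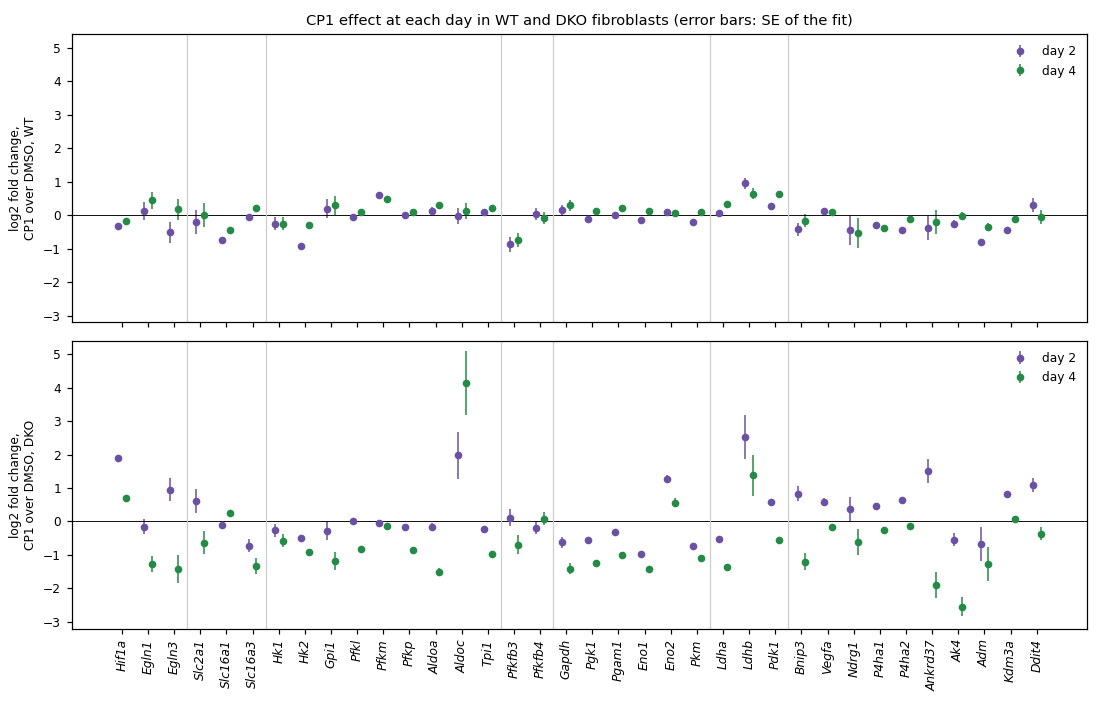
Log2 fold change of CP1 over DMSO for 36 members at day 2 and day 4, in WT (upper panel) and DKO fibroblasts (lower panel); bars are the standard error of the fit. WT values lie between -0.93 and 0.95, and in DKO the hypoxia targets on the right lie mostly above 0 on day 2 and mostly below 0 on day 4.

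The response to CP1 was called different between the genotypes for most members, but also for a large share of all genes. On day 2 this held for 59.5% of the 37 rows and 48.3% of all genes tested. On day 4 it held for 64.9% and 42.6%. The test uses the lone DMSO library of each genotype and day, so it is not independent of the genotype difference in DMSO. The effect in DKO minus that in WT was called above 0 for 13 rows and below 0 for 9 on day 2, against 23.2% and 25.1% of all genes tested, and above 0 for 4 and below 0 for 20 on day 4, against 19.8% and 22.8%. On day 2 the differences were 2.21 ± 0.09 for Hif1a (edgeR adjusted p = 1.09e-17), 1.27 ± 0.11 for Kdm3a, 1.25 ± 0.30 for Bnip3 and 1.18 ± 0.16 for Eno2, and -0.82 ± 0.13 for Eno1, -0.76 ± 0.23 for Gapdh, -0.67 ± 0.20 for Slc16a3 and -0.66 ± 0.09 for Pfkm. On day 4 they were 0.87 ± 0.08 for Hif1a, 0.68 ± 0.09 for Slc16a1 and 0.50 ± 0.16 for Eno2, and -2.53 ± 0.31 for Ak4, -1.80 ± 0.16 for Aldoa, -1.72 ± 0.36 for Egln1 and -1.71 ± 0.10 for Ldha. Of the 10 other hypoxia targets, 6 had a difference called above 0 on day 2 and 3 called below 0 on day 4. Library totals gave 17 above and 6 below on day 2, TPM values 15 and 0, and TPM values without rRNA and miRNA genes 14 and 5. On day 4, TPM values gave 4 above and 8 below. Gapdh on day 2 lost its call without either WT CP1 day 2 library (or either of day 4), Slc16a3 on day 2 without DKO CP1 day 2 repeat 1, and Egln1 on day 4 without either DKO CP1 day 4 library or without repeat 2 of WT CP1 day 4.

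Between the genotypes under CP1, most members were called higher in DKO cells on day 2 and most were called lower on day 4. On day 2, 22 of the 37 rows were called higher in DKO and 8 lower, against 29.9% and 31.9% of all genes tested. On day 4, 2 were called higher and 24 lower, against 28.8% and 31.4%, with 5 and 12 on TPM values. The median of the 37 rows was 0.54 on day 2 and -0.52 on day 4, with -0.01 and -0.02 for all genes tested. On day 2 Ndrg1 was higher by 2.43 ± 0.34 (edgeR adjusted p = 0.00359), Slc2a1 by 1.44 ± 0.29, Hk2 by 1.40 ± 0.07 and Pfkl by 1.11 ± 0.06. Pfkl stood at 374 and 435 CPM in DKO and 187 and 187 CPM in WT on that day, and at 216 and 206 CPM and 208 and 219 CPM on day 4, where the genotypes overlapped, and at 196 and 199 CPM in WT DMSO and 405 and 374 CPM in DKO DMSO. Slc2a1 lost the day 2 call without either WT CP1 day 2 library. On day 4 the members called higher in DKO were Pfkm (0.26 ± 0.05), at 95.3 and 101 CPM in DKO CP1 and 118 and 124 CPM on day 2, and Pkm (0.19 ± 0.05), which lost its call without repeat 1 of WT CP1 day 4. Adm, Slc16a3, Ldhb and Ak4 were lower in DKO on both days, with log2 differences of -5.66 ± 0.19 and -6.51 ± 0.18 for Adm, -4.90 ± 0.10 and -6.24 ± 0.10 for Slc16a3, -4.12 ± 0.19 and -4.38 ± 0.20 for Ldhb, and -1.81 ± 0.13 and -4.86 ± 0.18 for Ak4.

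From day 2 to day 4 under CP1, most members were called lower in DKO cells and a smaller number higher in WT cells, with no test of the difference between the genotypes in this change. In DKO cells 29 of the 37 rows were called lower on day 4 and 0 higher, where 12% of all genes tested were called lower and 12.1% higher. At least 2-fold lower were 14, against 1.55% of all genes. Ak4 fell by 2.59 ± 0.24 (edgeR adjusted p = 9.11e-09), Ankrd37 by 2.52 ± 0.31, Egln3 by 2.26 ± 0.31, Bnip3 by 1.99 ± 0.20, Ndrg1 by 1.40 ± 0.32, Aldoa by 1.35 ± 0.09 and Pdk1 by 1.30 ± 0.08. All 6 rows of lower glycolysis, 7 of 10 of upper glycolysis and 9 of 10 other hypoxia targets were called lower. Vegfa fell by 0.82 ± 0.07, Hk2 by 1.03 ± 0.07 and Slc16a3 by 1.05 ± 0.20. The comparison uses no DMSO library. With repeat 2 of day 2 left out, which was high in most members, 30 rows were called lower and 1 higher, and with repeat 1 left out 30 lower and 0 higher. The median was -0.73 without repeat 2 and -0.96 without repeat 1. Slc2a1 (-1.34 ± 0.29), Gpi1 and Ndrg1 lost their calls without either day 4 library of DKO or any WT CP1 library, and Egln1 without either day 4 library of DKO. In WT cells 16 rows were called higher and 1 lower, against 7% and 8.26% of all genes tested. Hk2 rose by 0.54 ± 0.08, Ak4 by 0.47 ± 0.10, Adm by 0.43 ± 0.09 and Ldha by 0.36 ± 0.06, and Pfkm fell by 0.20 ± 0.05. Ak4 lost its call without repeat 2 of either WT CP1 day, and Pfkm without day 2 repeat 1 or day 4 repeat 2. This WT count was 9 to 11 without WT CP1 day 2 repeat 1, day 2 repeat 2 or day 4 repeat 2, 24 without either DKO CP1 day 2 library (22 higher and 2 lower), 10 on TPM values without rRNA and miRNA genes, and 0 on TPM values with all genes. CT010467.1, annotated as rRNA, took 2.06% to 2.61% of counts in 3 of the 4 WT CP1 libraries and 0.0327% in repeat 2 of day 2. Whether it takes part in the WT differences was not tested.

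**Figure D5:**
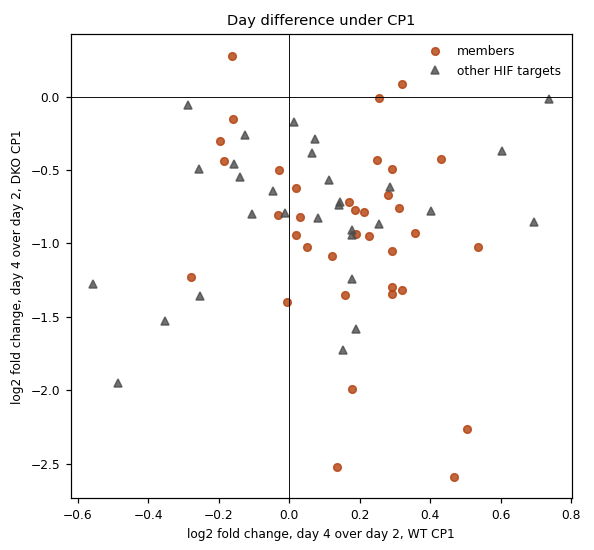
Log2 fold change of day 4 over day 2 under CP1 in WT (horizontal axis) and in DKO fibroblasts (vertical axis) for 36 members (circles) and 30 other HIF targets (triangles). Nearly all points lie below 0 in DKO, down to -2.59 for Ak4, while WT values lie between -0.56 and 0.74.

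Other HIF targets, from a list of 30 tested genes that holds none of the 37 rows, were also lower on day 4 than on day 2 of CP1 in DKO cells. From day 2 to day 4, 26 of the 30 were called lower in DKO CP1 and 0 higher (background 12% and 12.1%), with a median of -0.76. Loxl2, a collagen crosslinking enzyme, fell by 1.95, from 29 and 29 reads on day 2 to 13 and 4 reads on day 4, Fam162a, a mitochondrial protein, by 1.72, from 177 and 272 CPM to 69.6 and 66.3 CPM, and Higd1a, a respiratory chain assembly factor, by 1.58, from 112 and 168 CPM to 49.5 and 44.2 CPM. The day 2 pair was again unequal for Fam162a and Higd1a, and both day 2 values lay above both day 4 values. Under CP1 against DMSO in DKO cells, 15 of the 30 were called higher and 5 lower on day 2, against 27.1% and 29.1% of all genes tested. On day 4, 3 of the 30 were called higher and 16 lower, against 21.8% and 26.8%. Car9 belongs to this list and stayed above DMSO on day 4 (1.31 ± 0.28). Slc2a3, another glucose carrier, was at 4.50 and 6.15 CPM in WT DMSO and 19.8 and 19.1 CPM in DKO DMSO and had log2 changes under CP1 in DKO of -2.20 on day 2 and -3.43 on day 4. In DMSO the list was split between the genotypes, with 13 called higher and 11 lower in DKO on day 2 and 12 and 11 on day 4. That is near the background of 33% and 35.1% on day 2 and 31.5% and 33% on day 4. Of 12 tested genes of the HIF pathway outside the members, 6 were called higher and 5 lower in DKO DMSO on day 2, against 33% and 35.1% of all genes. On day 4, 7 of the 12 were called higher and 3 lower, against 31.5% and 33%. Epas1, which encodes HIF-2α, was lower by 2.73 on day 2, at 6.60 and 6.05 CPM in WT DMSO and 0.989 and 0.468 CPM in DKO DMSO. Cited2, which competes with HIF for its co-activators, was higher by 1.34 at 107 and 112 CPM in WT DMSO and 272 and 249 CPM in DKO DMSO.

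By level per kilobase, Pkm, Gapdh, Ldha, Pgk1, Aldoa and Tpi1 were the most abundant members in WT DMSO, with 231 to 329 CPM per kilobase on day 2, and their order among themselves cannot be told from lone libraries. In DKO DMSO day 2, Pkm had 935, Ldha 773, Pgk1 688 and Gapdh 633 CPM per kilobase, and Aldoa and Tpi1 had 339 and 336. Apart from the low Aldoa row, the least abundant members in WT DMSO day 2 were Egln3, Ankrd37, Pfkfb4 and Aldoc, with 1.45 to 2.01 CPM per kilobase. Lengths are those of all exons of a gene together, so a gene whose cells use a short isoform is understated.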

How the data were processed

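RNA was sequenced from 12 libraries in 8 groups. The authors deposited whole-number read counts per gene, made with featureCounts 1.5.2 on mm10 per the submitters' processing notes. They also deposited TPM values, with gene lengths beside them per the file headers. The aligner and the strand setting are not given in the sources used here. Library totals of 16970834 to 25299262 counts set the precision, and counting intervals at 95% cover counting error only.

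The members and lists, and the tests, were chosen with earlier results of these data known. Counts were filtered with filterByExpr (minimum count 10, total 15), which kept 16595 of 32168 genes, scaled by TMM and fitted in edgeR 4.0.16 (R 4.3.3) with 8 group means and the robust quasi-likelihood test, on 4 residual degrees of freedom. The same script was tested on simulated counts. Alternatives were RLE size factors, library totals, no filter or a mean CPM of at least 1, DESeq2 1.42.0, a replicate block, limma 3.58.1 on log2(TPM + 1), and leaving out each library. Limma on TPM without rRNA and miRNA genes was added after seeing the data.

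Values in every library are given for Hif1a, Slc2a1, Hk1, Hk2, Ldha, Ldhb, Slc16a1, Slc16a3, Pdk1 and Vegfa, and members were named by the up to 4 largest called changes in each direction and comparison with a mean of at least 2 log2 CPM. From each other list at most 3 genes were named. Members named beyond this were chosen after their values were seen. Promoter windows came from RefSeq (GRCm38.p6).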

Additional observations from a re-analysis of the deposited data

Results flagged for a closer look

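The response to CP1 differed between DKO and WT cells by the test of the difference itself (edgeR, adjusted over all genes). It was called for 22 members on day 2, 13 above 0 and 9 below, against 23.2% and 25.1% of all genes tested. The 9 below 0 are 24.3% of the 37 rows, at the background. Hif1a (2.21), Kdm3a (1.27), Bnip3 (1.25) and Eno2 (1.18) had a log2 difference above 0, and Eno1 (-0.82), Gapdh (-0.76), Slc16a3 (-0.67) and Pfkm (-0.66) below 0. On day 4 it was called for 24 members, 4 above 0 and 20 below, against 19.8% and 22.8% of all genes. It was above 0 for Hif1a (0.87), Slc16a1 (0.68) and Eno2 (0.50), and below 0 for Ak4 (-2.53), Aldoa (-1.80), Egln1 (-1.72) and Ldha (-1.71). Of the members named here, Gapdh and Slc16a3 on day 2 and Egln1 on day 4 lost their calls when single CP1 libraries were left out. The test uses the lone DMSO library of each genotype and day, so it is not independent of the genotype difference in DMSO.

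The difference between the genotypes in DMSO changed from day 2 to day 4, by the same kind of test, for 4 members: Hif1a (1.08), Kdm3a (0.38), Ak4 (-0.82) and Hk2 (-0.52). That is under the share of all genes tested, of which 9.78% were called higher and 8.67% lower. DESeq2 called 1 member, and Kdm3a lost its call when any of 6 of the 8 CP1 libraries was left out. Each DMSO group is a single library, and the 2 WT DMSO libraries, whose descriptions carry no day, differed less than repeats did.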

How the results depend on the processing

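The direction and call of most members held under the other settings tried. The numbers of members called outside 1.5 times the reported number were these. For the change of the genotype difference in DMSO (4 reported), DESeq2 called 1, TPM values 1, and TPM values without rRNA and miRNA genes 1. For days in DKO DMSO (7), library totals gave 3, DESeq2 3, TPM 1, and TPM without those genes 3. For CP1 in WT, TPM gave 5 on day 2 (11 reported), and DESeq2 7 and TPM 4 on day 4 (13). TPM gave 12 for the difference of CP1 effects on day 4 (24) and 17 for the genotypes under CP1 on day 4 (26). For days in WT CP1 (17), TPM gave 0 and TPM without those genes 10. Leaving out 1 library gave ranges of 29 to 33 and 27 to 33 for the genotypes in DMSO on days 2 and 4, 3 to 10 for the change between them, 4 to 16 for days in DKO DMSO, 0 to 0 for days in WT DMSO, 9 to 22 and 9 to 23 for CP1 in WT, 23 to 30 and 22 to 33 for CP1 in DKO, 20 to 29 and 20 to 28 for the difference of CP1 effects, 28 to 35 and 23 to 33 for the genotypes under CP1, 9 to 24 for days in WT CP1 and 24 to 31 for days in DKO CP1. The cause of these shifts was not tested.

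Directions turned for some members near 0. On TPM values these were CP1 in WT day 4 (Pgam1 -0.031, Tpi1 -0.035, Slc16a3 -0.039), CP1 in DKO day 2 (Pgam1 0.017, Tpi1 0.10) and day 4 (P4ha1 0.026), the difference of effects on day 2 (Pgam1 0.12, Tpi1 0.12) and the genotypes under CP1 on day 4 (Pgam1 0.23, Pfkp 0.050, Pgk1 0.12, Eno1 0.066). For CP1 in DKO day 2, library totals gave Pfkl 0.27, Tpi1 0.036, Slc16a1 0.17 and Pfkm 0.22, and TPM without rRNA and miRNA genes Pfkl 0.31, Tpi1 0.084, Slc16a1 0.21 and Pfkm 0.27, with P4ha1 0.013 on day 4. Leaving out 1 library gave -0.11 (DKO CP1 day 2 repeat 2) to 0.11 (repeat 1) for Pfkl under CP1 in DKO and -0.24 to 0.18, in the same way, for Hk1 in the difference of effects. Leaving out repeat 2 gave Pfkfb3 -0.31 for the genotypes under CP1. The replicate numbers do not pair the samples (correlations of the repeat differences -0.04 to 0.02). With the number as a block, the genotypes in DMSO gave 18 higher and 13 lower members on day 2 and 16 and 13 on day 4, days in DKO CP1 gave 0 and 27, and 524 of 540 member results kept direction and call. In libraries of 16970834 to 25299262 counts, depth limits Ldhb, Aldoc and Adm in DKO cells most.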

Other observations

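Neighbouring pathways, from lists outside the members, moved as follows. All 7 tested genes of the pentose phosphate pathway, which branches off upper glycolysis and yields NADPH, were called lower in DKO cells under CP1 on both days (edgeR), where 29.1% and 26.8% of all genes were. Of the 7, 6 were called higher in DKO than WT cells in DMSO on both days, where 33% and 31.5% of all genes were. The 2 comparisons share the lone DKO DMSO library of each day, so neither supports the other. Under CP1 in DKO cells on day 2, the log2 change nearest 0 among the 7 was -0.36. Library totals moved the median of all genes there from 0.03 to 0.30, and whether the 7 calls hold on that scale was not tested. Tkt, transketolase, was at 128 and 136 CPM in WT DMSO, 255 and 214 CPM in DKO DMSO, 137 and 155 CPM in DKO CP1 day 2 and 126 and 123 CPM on day 4. It fell by 0.81 ± 0.06 and 0.78 ± 0.06, and Taldo1, transaldolase, by 0.56 ± 0.06 and 0.59 ± 0.06. From day 2 to day 4 of CP1 in DKO cells, when 29 members were called lower, 1 of these 7 was called higher and 2 lower. Of all genes tested 12.1% were called higher and 12% lower. The median of the 7 was 0.08. The pentose phosphate genes and the members were not tested against each other.

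Of 14 tested genes that pass pyruvate into mitochondria, 9 were called higher and 3 lower in DKO DMSO on day 2, where 33% and 35.1% of all genes tested were, and 7 and 3 on day 4, where 31.5% and 33% were. Pdha1, a subunit of pyruvate dehydrogenase, was at 126 and 128 CPM in WT DMSO and 401 and 289 CPM in DKO DMSO, a difference of 1.67 ± 0.06 on day 2, and Pdp1, the phosphatase that reactivates the complex, was lower by 1.66 ± 0.14. Under CP1 in DKO cells, Pdha1 fell by 1.30 ± 0.05 and Pdp1 rose by 1.97 ± 0.12 on day 2. From day 2 to day 4 under CP1 in DKO cells, 2 of the 14 were called higher and 0 lower, where 12.1% and 12% of all genes tested were. Among 15 further glycolytic isoforms and carriers, 4 were called higher and 4 lower in DKO DMSO on day 2, both under those shares of all genes. Eno3, the enolase of muscle, stood higher in DKO DMSO by 2.59 ± 0.08 and fell under CP1 in DKO cells by 1.89 ± 0.07 and 2.06 ± 0.07. For Pdha1, Pdp1 and Eno3 as well, both comparisons share the lone DKO DMSO library of a day, so neither supports the other.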
